A study of Mus musculus with 12 samples.

Results

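Histone lysine demethylases other than UTX were examined in CD8+ T_prog_ cells of mice with a T cell deletion of UTX. The 10 genes were *Kdm1a*, *Kdm2a*, *Kdm2b*, *Kdm3a*, *Kdm3b*, *Kdm4a*, *Kdm4b*, *Kdm4c*, *Kdm5a* and *Kdm5b*, taken by symbol from 25860 genes in the RNA-seq table. UTX, encoded by *Kdm6a*, removes methyl groups from H3K27. T_prog_ cells are stem-like progenitors of β cell–specific CD8+ T cells. They were sorted from the pancreatic lymph nodes of *NOD-TCR 8.3* mice, whose T cells carry a transgenic receptor for the islet antigen IGRP. In *NOD-TCR 8.3 UTX TCD* mice, floxed *Kdm6a* was deleted in T cells by *Lck*-driven Cre, so the deletion was not limited to T_prog_ cells. *NOD-TCR 8.3 WT* mice served as controls and carried the same receptor. For the line without this receptor, the paper names Cre-negative littermates as the *WT* controls. The labels give no age. RNA-seq and ATAC-seq (transposase-accessible chromatin) were each done on 3 libraries per genotype, and the 6 RNA-seq libraries held 61512402 to 193568919 counted reads.

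Lysine demethylases fall into 2 classes. KDM1A (LSD1) uses a flavin cofactor, whereas the JmjC enzymes use iron, oxygen and 2-oxoglutarate. KDM1A and the KDM5 enzymes act on methylated H3K4, the KDM2 enzymes on H3K36, the KDM3 enzymes on H3K9, and the KDM4 enzymes on H3K9 and H3K36. Transcript levels do not measure enzyme activity or histone methylation, and neither was assayed in these libraries.

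The sorted cells carried CD8 T progenitor transcripts, as labelled. *Cd8a*, the most abundant CD8 T progenitor marker, was at 270012 to 313000 normalized counts (reads divided by the authors' size factor for that library), and *Tcf7*, encoding TCF1, at 220872 to 244276. The summed level of the 10 progenitor markers was 1408540, 1386610 and 1334590 in *WT* libraries and 1391760, 1331340 and 1278450 in *UTX TCD* libraries. Of these markers, *Cd3e* rose (log2 fold change 0.17, adjusted p = 0.0414), while *Cd8b1* (-0.37, adjusted p = 0.00634) and *Cd3g* (-0.26, adjusted p = 0.00631) fell. Markers of other cells were far lower. The 8 B cell markers summed to 3049, 2554 and 2894 in *WT* and 1509, 1347 and 1585 in *UTX TCD*. *Cd79b*, the most abundant by its mean, carried this difference (log2 fold change -1.98, adjusted p = 1.47e-05), while *Cd22* (1.90, adjusted p = 0.000535) and *Ms4a1* (1.72, adjusted p = 0.0367) rose. Both were highest in *UTX TCD* replicate 3. In *UTX TCD* replicates 1, 2 and 3, *Cd22* was at 277, 247 and 502, and *Ms4a1* at 20.2, 29.6 and 73.0. The 9 myeloid markers summed to 1318, 1278 and 1161 in *WT* and 1122, 888 and 1057 in *UTX TCD*. *Cd68*, the most abundant of them, rose (0.43, adjusted p = 0.0377), whereas *Itgam*, *Fcgr3* and *Csf1r* fell (-2.57, -2.15 and -1.85), and *S100a8* and *S100a9* were at 0 in all 6 libraries. The 8 markers of mediator or effector cells summed to 24738, 20609 and 26193 in *WT* and 17457.5, 18568 and 18522 in *UTX TCD*. *Prf1* was the most abundant by its mean over 6 libraries, but *Cxcr6* had the higher mean in *WT* (12033 against 11058). Of 6 markers of this list tested, 4 fell, against 20.5% of all genes tested: *Cxcr6*, *Gzma* (log2 fold change -1.06), *Gzmb* (-0.47) and *Havcr2* (-2.23). *Havcr2* reached the filter of a mean of 10 only through the *WT* libraries, as did *Entpd1*, which missed the test. The fall of *Havcr2* is therefore a description and adds no weight to the count. Most of the lower sum came from *Cxcr6*, which was at 12757, 9619 and 13724 in *WT* and 5286, 5994 and 5695 in *UTX TCD* (log2 fold change -1.07, adjusted p = 0.000131), while *Prf1* did not pass the test (0.13, adjusted p = 0.0892). Marker genes named here that were neither the most abundant of their list nor at 0 were chosen after their values were seen. Whether these differences, or those of the marker lists that follow, had a part in the results below was not tested. In bulk libraries, fewer cells of a type and less RNA per cell cannot be told apart.

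The remaining marker lists were low or were led by a gene that T cells also express. The 4 CD4 and Treg markers summed to 518, 413 and 490.4 in *WT* and 391, 382 and 369 in *UTX TCD*, and *Cd4* (log2 fold change -0.74, adjusted p = 0.0384) and *Zbtb7b* (-1.85, adjusted p = 0.0095) fell. The 6 plasma cell markers summed to 5235, 5153 and 5353 in *WT* and 5734, 5644 and 6041 in *UTX TCD*, led by *Xbp1* (log2 fold change 0.13, adjusted p = 0.0592). Of 4 plasma cell markers tested, 2 rose, against 20.2% of all genes tested: *Jchain* (1.43, adjusted p = 0.0453) and *Sdc1*. The rise of *Sdc1* adds no weight to this count, since only its *UTX TCD* libraries brought it past the filter. *Jchain* was at 38.2, 30.4 and 89.2 in *UTX TCD* replicates 1, 2 and 3. *Eomes*, the most abundant NK marker, rose, with 13176 to 15314.5 normalized counts in *WT* and 19086 to 26829 in *UTX TCD* (0.62, adjusted p = 0.00388). *Klrb1c*, the other NK marker tested, was at 28.7, 55.3 and 16.8 in *WT* and 13.5, 5.61 and 25.8 in *UTX TCD*. Its difference missed the test (log2 fold change -1.18, adjusted p = 0.14). *Pecam1*, the most abundant stromal or endothelial marker, rose, with 29365 to 31327 in *WT* and 33068 to 37236 in *UTX TCD* (0.22, adjusted p = 0.0114). *Cdh5*, of the same list, was at 24.8, 21.7 and 9.91 in *WT* and listed at 0 in all 3 *UTX TCD* libraries. The 6 dendritic markers summed to 266, 210.3 and 244 in *WT* and 218, 228 and 252 in *UTX TCD*. Among them, *Zbtb46* missed the test (log2 fold change 0.90, adjusted p = 0.0541), and *Itgax* was at 48.5, 24.7 and 55.7 in *WT* and at 0, 0 and 4.42 in *UTX TCD*. *Itgax*, *Havcr2* and *Csf1r* reached the filter of a mean of 10 only through the *WT* libraries, and *Sdc1* only through the *UTX TCD* libraries, so their differences are descriptions. *Xcr1* led the dendritic list at 141 to 167, *Foxp3* the CD4 and Treg list at 235 to 317, *Alas2* the erythroid list at 135 to 174, and *Prss2* the pancreas list at 108 to 175. *Ins2* was at 0 in all 6 libraries.

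The targeted gene was checked first. *Kdm6a* was at 28365, 28949 and 29172 normalized counts in *WT* libraries and at 24158.5, 24792 and 24579 in *UTX TCD* libraries. The highest *UTX TCD* value was under the lowest *WT* value. The log2 fold change of *UTX TCD* over *WT* was -0.23 (95% confidence interval -0.32 to -0.15, limma adjusted p = 0.00114). Reads were summed over the whole gene, so transcripts without the deleted exons still add to this count.

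All 10 demethylases were expressed in every library and passed the filter of a mean normalized count of at least 10. Of these, 3 rose in *UTX TCD* T_prog_ cells at an adjusted p under 0.05: *Kdm5b*, *Kdm4a* and *Kdm3b*. Over all 14459 genes tested, 20.2% rose and 20.5% fell by the same rule, and 40.7% did either. Among the 3543 genes with at least the mean count of the lowest of the 10 demethylases, 47.2% did either. The share of demethylases past the test was thus no higher than in the transcriptome. None of the 10 fell by limma, edgeR or DESeq2, and 1 (*Kdm3a*) was lower at an unadjusted p under 0.05. None changed by over 0.5 on the log2 scale at an adjusted p under 0.05 by any of these tools, against 17.6% of all genes tested. Without *UTX TCD* replicate 2, 1 of the 3 (*Kdm5b*) passed. The median log2 fold change of the 10 was 0.03, against -0.00018 over all genes tested.

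*Kdm5b*, an H3K4 demethylase, showed the largest difference of the 10. It was at 18082, 17462 and 18827 normalized counts in *WT* libraries and at 21308.5, 21293 and 19939 in *UTX TCD* libraries. The genotypes did not overlap. Its mean rose by 15.0% (log2 fold change 0.20, 95% confidence interval 0.10 to 0.31, adjusted p = 0.00793), and it stayed past the test in all 17 alternative analyses, with adjusted p from 0.001 to 0.04. A larger absolute log2 fold change was found in 51.0% of all genes tested, while the median absolute log2 fold change was 0.13 among the 3543 genes with at least the mean count of the lowest of the 10. Its paralog *Kdm5a* was at 45096 to 50480 in *WT* and 45719 to 49433 in *UTX TCD*, with overlapping genotypes. The *Kdm5a* log2 fold change was 0.03 (95% confidence interval -0.10 to 0.15, adjusted p = 0.724).

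The KDM4 genes, whose products act on H3K9 and H3K36, did not move as a group. *Kdm4a* was at 19548, 18781 and 20084 normalized counts in *WT* libraries and at 21227.5, 22606 and 21784 in *UTX TCD* libraries. Every *UTX TCD* library was above every *WT* library. The log2 fold change was 0.17 (95% confidence interval 0.07 to 0.27, adjusted p = 0.0147). Its adjusted p was 0.0714 without *UTX TCD* replicate 2 and 0.0501 by limma without a mean-variance trend, within a range of 0.00138 to 0.0714 over all alternatives. *Kdm4c* was at 12670, 12401 and 13126 in *WT* and at 12151, 12250 and 12159 in *UTX TCD*. These values did not overlap, yet the difference missed the test (log2 fold change -0.06, 95% confidence interval -0.15 to 0.03, adjusted p = 0.247). With libraries scaled to the same sum, its log2 fold change was -0.0004 (adjusted p = 0.993, the highest of a range from 0.143 over all alternatives). *Kdm4b* had the widest spread among *WT* libraries, with a coefficient of variation of 9.38%, and its genotypes overlapped (log2 fold change -0.04, 95% confidence interval -0.20 to 0.12).

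The H3K9 demethylases *Kdm3a* and *Kdm3b* differed in opposite directions, of which only the *Kdm3b* difference passed the test. *Kdm3b* was at 34497, 34275 and 36535 normalized counts in *WT* libraries and at 38755, 40137 and 37921 in *UTX TCD* libraries. No *UTX TCD* value reached down to the *WT* range. The log2 fold change was 0.15 (95% confidence interval 0.05 to 0.25, adjusted p = 0.0238). This call was the least stable of the 3. Its adjusted p was 0.0931 without *WT* replicate 1, 0.0536 without *WT* replicate 2, 0.0584 without *UTX TCD* replicate 1, 0.104 without *UTX TCD* replicate 2 and 0.0668 without a trend, within a range of 0.00197 to 0.104. *Kdm3a* was at 26787.5, 26281 and 27353 in *WT* and at 24449, 25933.5 and 24282.5 in *UTX TCD*. Its genotypes did not overlap, but the test was missed (log2 fold change -0.11, 95% confidence interval -0.20 to -0.01, adjusted p = 0.0717). With every library scaled to the same sum, the *Kdm3a* log2 fold change was -0.05.

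A ratio of 2 genes within a library does not depend on how libraries are scaled. The log2 ratio of *Kdm3b* to *Kdm3a* counts was 0.36, 0.38 and 0.42 in *WT* libraries and 0.66, 0.63 and 0.64 in *UTX TCD* libraries. The genotype means differed by 0.26, and the ranges were well apart. The log2 ratio of *Kdm4a* to *Kdm4c* was 0.63, 0.60 and 0.61 in *WT* and 0.80, 0.88 and 0.84 in *UTX TCD*. *Kdm5b* to *Kdm5a* also did not overlap between genotypes, with a difference of 0.17, whereas *Kdm2b* to *Kdm2a* did. These ratios were chosen after the values were seen and were not tested.

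*Kdm1a*, *Kdm2a* and *Kdm2b* did not pass the test. *Kdm1a*, the catalytic subunit of CoREST, was at 17750 to 18090 normalized counts in *WT* and 17422 to 18310 in *UTX TCD*. Its 95% confidence interval of -0.09 to 0.09 was the narrowest of the 10 on the log2 scale. *Kdm2a* was at 42888 to 46840 in *WT* and 45283 to 46971 in *UTX TCD* (log2 fold change 0.03, 95% confidence interval -0.08 to 0.13). Without *WT* replicate 2, the *Kdm2a* log2 fold change was -0.012. *Kdm2b*, whose product brings a variant Polycomb complex to CpG islands, was at 8295 to 9614 in *WT* and 9016 to 9795 in *UTX TCD* (log2 fold change 0.08, 95% confidence interval -0.06 to 0.22). With single libraries left out, the *Kdm2b* log2 fold change ranged from 0.026 to 0.133. In RefSeq, 18.7% of the *Kdm1a* exon bases and 10.3% of those of *Kdm2a* also lie in exons of a gene on the other strand, and the strand setting of the read counting is not stated. The sign of the *Kdm1a* and *Kdm4b* differences, neither past the test, changed with scaling: with libraries scaled to the same sum they were 0.06 and 0.02.

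**Figure D1:**
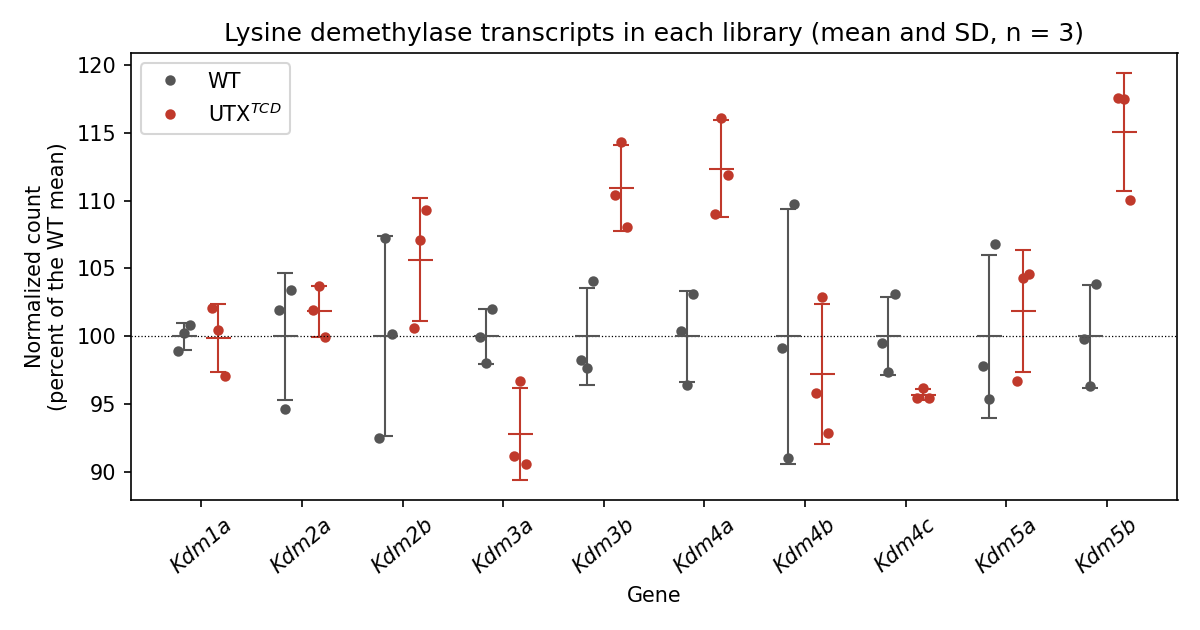
Normalized counts of the 10 demethylase genes in each RNA-seq library, as a percent of the mean of the 3 *WT* libraries of that gene (vertical axis, not starting at 0). Points are libraries, and the crosses with bars are the mean and SD of 3 libraries per genotype. The *UTX TCD* points of *Kdm3b*, *Kdm4a* and *Kdm5b* lie above all *WT* points, and those of *Kdm3a* and *Kdm4c* lie below.

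In all, 5 of the 10 genes had genotypes that did not overlap, against 51.9% of all genes tested. The spread within a genotype was small, with coefficients of variation of 0.969% (*Kdm1a*) to 9.38% (*Kdm4b*) among *WT* libraries and 0.45% (*Kdm4c*) to 5.28% (*Kdm4b*) among *UTX TCD* libraries.

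Levels of different genes were compared per kilobase of the longest curated RefSeq transcript. *Kdm2a* was the most abundant, with a mean over 6 libraries of 6291 normalized counts per kilobase, followed by *Kdm1a* at 5831, with overlapping ranges. *Kdm3a* at 5322 overlapped *Kdm3b* at 5205, which overlapped *Kdm4a* at 4478, and *Kdm4a* overlapped *Kdm5a* at 4350. *Kdm5b* at 3093 and *Kdm4c* at 2927 also overlapped. The order within 3 of these pairs differed by genotype. Mean counts per kilobase of *Kdm3a* and *Kdm3b* were 5519 and 4936 in *WT* but 5124 and 5475 in *UTX TCD*. Those of *Kdm4a* and *Kdm5a* were 4218 and 4310 in *WT* but 4738 and 4390.2 in *UTX TCD*, and those of *Kdm5b* and *Kdm4c* were 2877 and 2991 in *WT* but 3309 and 2863 in *UTX TCD*. *Kdm4b* at 2240.4 and *Kdm2b* at 1780.3 were the lowest per kilobase. The highest mean per kilobase was 3.53 times the lowest. By the length of all exons together, *Kdm3a* and *Kdm3b* changed places, as did *Kdm4a* and *Kdm5a*.

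Some genes in the rest of the family differed more than the 10 did. Of 23 further JmjC and LSD1 family genes, 21 were tested, of which 5 rose and 3 fell, *Kdm6a* included, against 20.2% and 20.5% of all genes tested. The median log2 fold change of the list was -0.01. *Kdm5d* was at 0 in all 6 libraries and *Uty* at 2.25 or less. Both are Y-linked, and the study used female mice.

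*Hr*, encoding a JmjC corepressor of nuclear receptors, rose the most of the list. It was at 72.3, 85.9 and 77.8 normalized counts in *WT* libraries and at 600.6, 722 and 445 in *UTX TCD* libraries. Its genotypes were far apart (log2 fold change 2.86, 95% confidence interval 2.43 to 3.30, adjusted p = 8.95e-06). *Kdm4d*, an H3K9 demethylase, was at 43.6, 37.5 and 35.8 in *WT* and at 101, 90.5 and 176 in *UTX TCD* (log2 fold change 1.57, adjusted p = 0.00215). *Kdm7a*, a demethylase of H3K9 and H3K27, fell from 39606, 40357 and 39808 to 26003, 26836 and 27864 (log2 fold change -0.57, 95% confidence interval -0.66 to -0.48, adjusted p = 1.32e-05).

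The other genes of the family past the test changed less. *Riox2*, a ribosomal oxygenase, fell (log2 fold change -0.37, adjusted p = 0.000919). *Jmjd7*, a lysyl hydroxylase, rose (0.50, adjusted p = 0.000209), although 89.9% of its exon bases also belong to the read-through gene *Gm28042*. *Kdm5c*, the X-linked relative of *Kdm5a* and *Kdm5b*, rose by 0.15 (adjusted p = 0.0196), and *Phf8* by 0.12 (adjusted p = 0.0448). The *Kdm5c* call was lost without *WT* replicate 1 (0.0868), without *UTX TCD* replicate 2 (0.0889) or without a trend (0.0561), within a range of 0.0019 to 0.0889. Without *WT* replicate 1 or *UTX TCD* replicate 2, 3 family genes rose in place of 5. *Phf8* passed in 9 of 17 alternatives, and its adjusted p ranged from 0.00614 to 0.172. Without single libraries it was 0.144 (*WT* replicate 1), 0.0535 (*WT* replicate 2), 0.102 (*WT* replicate 3), 0.131 (*UTX TCD* replicate 1) and 0.172 (*UTX TCD* replicate 2). *Kdm6b*, the other H3K27 demethylase, had a log2 fold change of -0.02 (95% confidence interval -0.11 to 0.08).

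**Figure D2:**
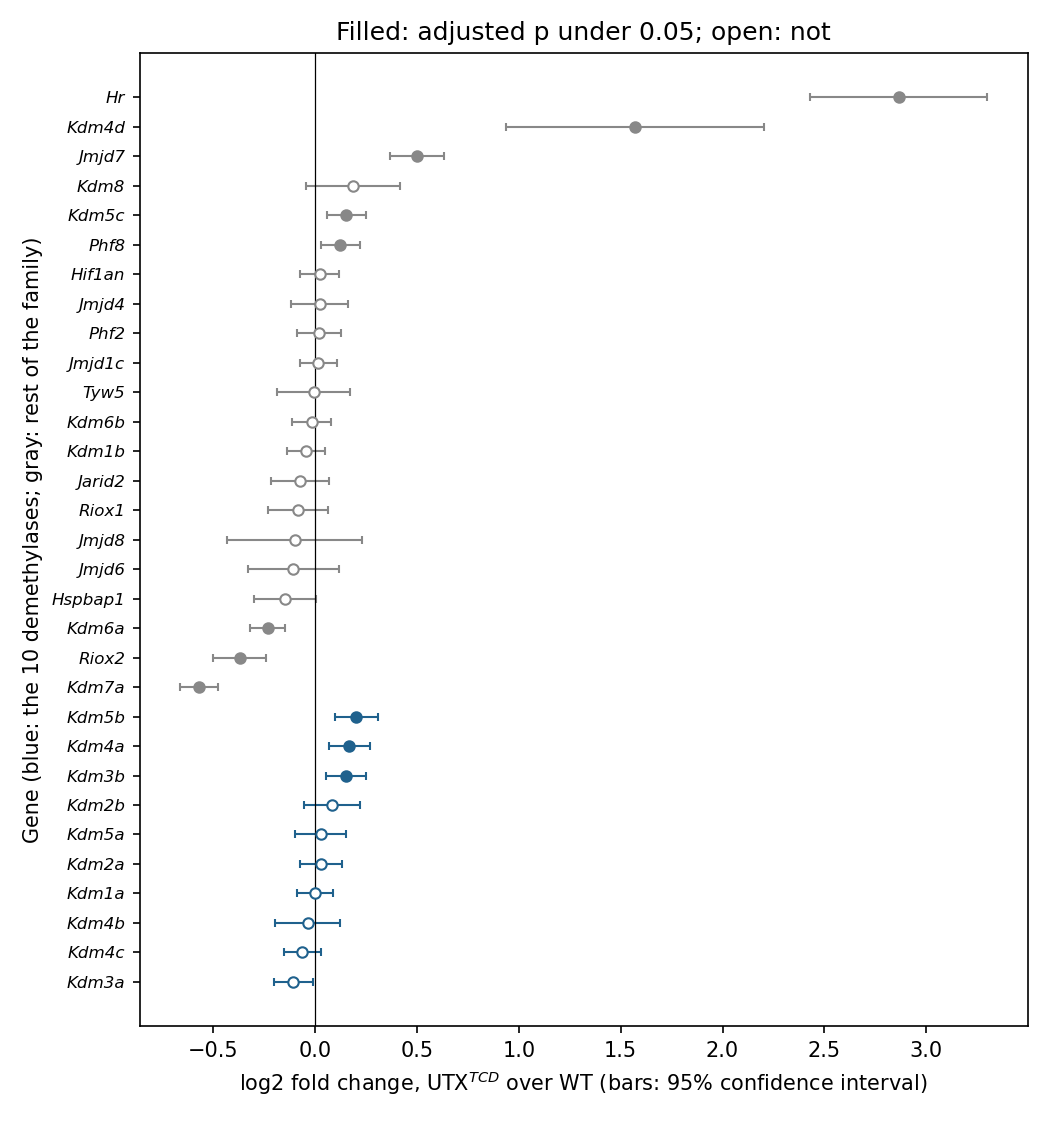
Log2 fold change of *UTX TCD* over *WT* (horizontal axis) with its 95% confidence interval for the 10 demethylases (blue) and 21 further family genes (gray). Filled points had an adjusted p under 0.05. The 10 demethylases lie between -0.11 and 0.20, while *Hr* is at 2.86 and *Kdm7a* at -0.57.

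Partners of the demethylases were described next. Of 16 tested genes of the KDM1A and CoREST complex and its recruiters, 6 rose and 1 fell. Over all genes tested, 20.2% rose and 20.5% fell, and each list is to be read against these shares. *Gfi1*, a repressor that recruits KDM1A, rose by 0.48 on the log2 scale (adjusted p = 0.00362). *Snai1*, another recruiter and 1 of the 6, had means of 6.62 in *WT* and 27.9 in *UTX TCD*. It reached the filter of 10 only through the *UTX TCD* libraries, so its difference is given as a description. Of 9 genes of the KDM2B Polycomb complex, 1 rose and 3 fell. *Bcor* had a log2 fold change of 0.27 (adjusted p = 0.0164), *Pcgf1* -0.19 (adjusted p = 0.0334) and *Usp7* -0.15 (adjusted p = 0.039). These calls were not stable, as *Bcor* passed in 15 of 17 alternatives, *Pcgf1* in 11 and *Usp7* in 7. Without *UTX TCD* replicate 2, 0 genes of this complex passed in either direction. Without *WT* replicate 1, *WT* replicate 3 or *UTX TCD* replicate 1, 0 fell, and without *UTX TCD* replicate 3, 1 fell. The number of CoREST genes that fell was 3 without *WT* replicate 2 and 0 without any other single library. Of 11 KDM5 partners, 2 fell and 0 rose, and 0 were higher at an unadjusted p under 0.05 or by edgeR or DESeq2. Those that fell were *Rbpj*, the Notch pathway transcription factor (log2 fold change -0.74, adjusted p = 0.000118), and *Morf4l1* (-0.14, adjusted p = 0.02). *Rbpj* passed in all 17 alternatives and *Morf4l1* in 11. Without *WT* replicate 1, *WT* replicate 3 or *UTX TCD* replicate 2, 1 partner fell, and without *WT* replicate 2, 1 rose.

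The enzymes that write the same marks were compared as well. Of 9 H3K9 writers and cofactors, 6 rose and 1 fell, against 20.2% and 20.5% of all genes tested, and their median log2 fold change was 0.22. *Setdb2* rose by 0.47 (adjusted p = 0.000181), *Suv39h1* by 0.28 (adjusted p = 0.0021) and *Prdm2* by 0.25 (adjusted p = 0.00228). For *Setdb2*, 89.1% of exon bases are shared with the read-through gene *Gm45935*. Of 14 H3K4 writers and subunits, 4 rose and 2 fell. The catalytic genes *Kmt2d* (log2 fold change 0.45, adjusted p = 0.000149), *Kmt2c* (0.36, adjusted p = 0.000881) and *Kmt2a* (0.30, adjusted p = 0.00339) rose. The number of H3K4 genes that fell was 0 without *WT* replicate 1 or *UTX TCD* replicate 2, and 1 without *WT* replicate 3 or *UTX TCD* replicate 3. Of 8 genes listed as H3K36 writers, 4 rose, among them *Nsd2* (0.66, adjusted p = 0.000251), *Smyd2* (0.52, adjusted p = 0.000294) and *Setd3* (0.37, adjusted p = 0.00105). Whether each of the 8 products acts on H3K36 was not tested. None of the 8 fell by limma, edgeR or DESeq2, and 1 was lower at an unadjusted p under 0.05.

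JmjC enzymes need 2-oxoglutarate, which isocitrate dehydrogenases produce. Of 17 genes listed under 2-oxoglutarate metabolism, 1 rose and 7 fell, against 20.2% and 20.5% of all genes tested, with a median log2 fold change of -0.13. The list includes fumarase and succinate dehydrogenase genes, some of them among those that fell. The count is therefore not one of 2-oxoglutarate supply alone. *Idh2*, the mitochondrial isocitrate dehydrogenase, was at 6567, 5647 and 7027 normalized counts in *WT* libraries and at 3079, 3366 and 3145 in *UTX TCD* libraries. All 3 *UTX TCD* libraries were well below the lowest *WT* value (95% confidence interval of the log2 fold change -1.18 to -0.82, adjusted p = 2.39e-05). *Idh3g* fell by 0.21 on the log2 scale (adjusted p = 0.00702). The share of normalized counts from the 2 mitochondrially encoded genes listed, both ribosomal RNA genes, was 0.198%, 0.221% and 0.192% in *WT* libraries and 0.166%, 0.164% and 0.182% in *UTX TCD* libraries. Its part in these results was not tested. The number of the 17 that fell depended on scaling and on single libraries. It was 2 with libraries scaled to the same sum, 3 without *WT* replicate 1, 4 without *WT* replicate 2 or 3, and 2 without *UTX TCD* replicate 2.

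Chromatin at the 10 genes was read from the ATAC-seq table, which lists 23932 peaks, all with an authors' false discovery rate under 0.05. Its only values per genotype are the authors' mean log2 concentrations (normalized reads in a peak), with none per library, so no spread or test is given here. Of the listed peaks, 68.8% had the higher mean in *UTX TCD*. The 10 demethylases had 6 listed peaks at 5 genes, and 5 of the 6 were higher in *UTX TCD*. By comparison, 47.9% of all genes tested in the RNA-seq had a listed peak. No listed peak was annotated to *Kdm1a*, *Kdm2a*, *Kdm2b*, *Kdm4a* or *Kdm4b*. *Kdm4a* transcripts therefore rose without a listed peak annotated to the gene.

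The largest differences in the authors' means were at *Kdm5b*, which also had the largest RNA difference of the 10. Both of its peaks lay in intron 1 of 26 (mm10). The first, at chr1:134570630-134571030, was 10652 bases after the start site. Its authors' mean log2 concentration was 6.10 in *WT* and 7.21 in *UTX TCD*. The second, at chr1:134574944-134575344, was 14966 bases after the start site, and its authors' means were 6.38 and 7.68. Among all listed peaks, 17.4% had a larger absolute difference than this second peak.

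**Figure D3:**
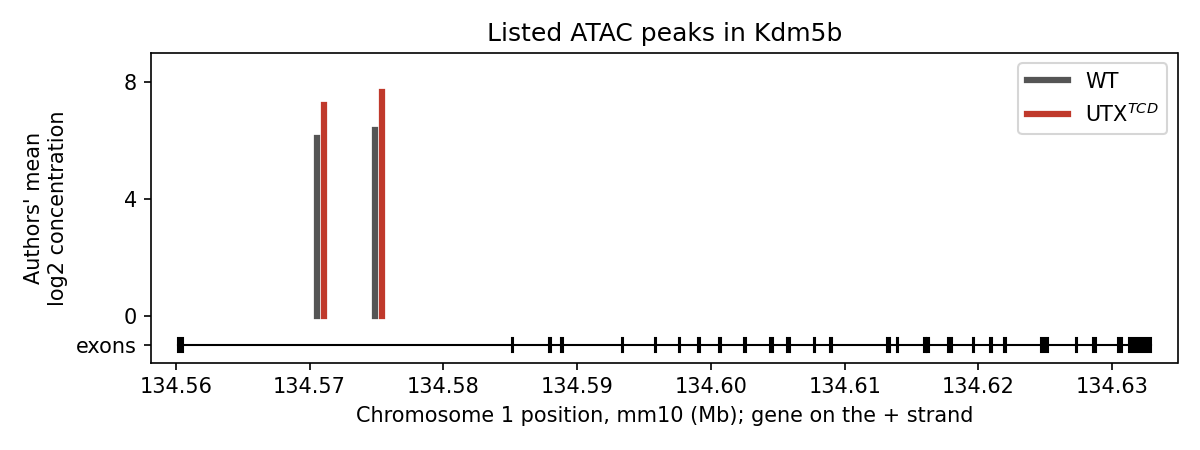
Map of *Kdm5b* on chromosome 1 (mm10, horizontal axis in megabases) with RefSeq exons as black boxes and the authors' mean log2 concentration of each listed ATAC-seq peak as bars from 0, gray for *WT* and red for *UTX TCD*. Bars of a peak are set side by side for display. Both peaks lie in intron 1, and the *UTX TCD* mean was higher at each, at 7.21 and 7.68.

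At *Kdm3b*, a peak in intron 1 of 23 (chr18:34783524-34783924) had authors' means of 10.40 in *WT* and 10.93 in *UTX TCD*. *Kdm3a* had the single peak with a lower mean in *UTX TCD*. It lay between genes at chr6:71638529-71638929, 5812 bases before the annotated start site (-5812), with authors' means of 8.24 in *WT* and 7.55 in *UTX TCD*. Peak and transcript thus differed in the same direction at *Kdm3a*, *Kdm3b*, *Kdm5a* and *Kdm5b*, although the *Kdm3a* and *Kdm5a* transcripts missed the test, and the *Kdm5a* log2 fold change was -0.0057 without *WT* replicate 2.

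At *Kdm4c*, peak and transcript differed in opposite directions, with neither the transcript past the test nor the peak inside the gene. That peak (chr4:74231054-74231454) was at 7.90 in *WT* and 8.64 in *UTX TCD*. The *Kdm5a* peak overlapped the start site (chr6:120363884-120364284) and was at 10.93 in *WT* and 11.23 in *UTX TCD*. When peaks were instead taken by position, inside the RefSeq gene or up to 2 kb before it, 7 peaks were found and all were higher in *UTX TCD*. They included peaks annotated to neighbors but lying inside *Kdm2a* and *Kdm3b* or just before *Kdm2b*.

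The middle 300 bases of both *Kdm5b* peaks and of the *Kdm3a* peak are shown, since these had the largest differences and the single lower mean. They were read from the + strand of the RefSeq GRCm38.p6 genome, which has the coordinates of mm10. Capitals mark matches, on either strand, to motifs chosen after the peaks were seen: CTTTGA for TCF/LEF, TTCNNNGAA for STAT, TGTGGT for RUNX and TGANTCA for AP-1.
Kdm5b chr1:134570680-134570979: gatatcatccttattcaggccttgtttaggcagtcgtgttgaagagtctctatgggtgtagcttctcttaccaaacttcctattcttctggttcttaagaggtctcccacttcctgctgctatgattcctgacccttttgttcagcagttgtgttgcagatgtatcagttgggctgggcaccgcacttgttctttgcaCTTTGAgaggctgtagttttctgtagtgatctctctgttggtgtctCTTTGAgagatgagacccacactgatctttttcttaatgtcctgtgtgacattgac
Kdm5b chr1:134574994-134575293: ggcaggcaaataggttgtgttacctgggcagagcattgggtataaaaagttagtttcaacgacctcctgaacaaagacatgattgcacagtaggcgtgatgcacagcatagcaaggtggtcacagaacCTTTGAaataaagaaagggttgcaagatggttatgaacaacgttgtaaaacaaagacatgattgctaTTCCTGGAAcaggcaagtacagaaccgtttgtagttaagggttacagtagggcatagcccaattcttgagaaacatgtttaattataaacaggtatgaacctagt
Kdm3a chr6:71638579-71638878: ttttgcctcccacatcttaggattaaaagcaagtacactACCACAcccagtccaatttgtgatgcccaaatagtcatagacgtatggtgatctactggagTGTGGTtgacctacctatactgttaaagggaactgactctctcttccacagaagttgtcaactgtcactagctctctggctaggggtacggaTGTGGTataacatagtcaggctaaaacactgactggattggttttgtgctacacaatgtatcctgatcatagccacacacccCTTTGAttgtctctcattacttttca

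The first *Kdm5b* window held 2 TCF/LEF matches, and the second held 1 TCF/LEF and 1 STAT match. The *Kdm3a* window held 1 TCF/LEF and 3 RUNX matches. The *Kdm4c* window, searched but not shown, held 0 TCF/LEF and 2 RUNX matches. Windows of the *Kdm3b* and *Kdm5a* peaks were not examined singly, so the windows shown are a selection. None of the 3 windows shown held the AP-1 letters. Over the same windows of 23908 listed peaks, 25.1% held the TCF/LEF letters, 8.82% STAT, 34.3% RUNX and 10.3% AP-1. A match describes the letters and does not show binding. In the promoter sequence table, *Kdm2a*, *Kdm3b*, *Kdm4b* and *Kdm5a* had no entry.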

How the data were processed

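RNA-seq and ATAC-seq were each done on 3 *WT* and 3 *UTX TCD* libraries of the *NOD-TCR 8.3* line, grouped by their labels. The submitters' processing notes name HISAT2 2.2.1, featureCounts and DESeq2 for RNA-seq, and Bowtie2, MACS2 and DiffBind for ATAC-seq, all on mm10. The authors deposited RNA values as a signal: read counts per gene divided by 1 DESeq2 size factor per library. Dividing each library by its smallest step gave whole reads within 0.01. The authors deposited ATAC values as the mean log2 concentration per genotype. Both files also hold the authors' own fold changes and adjusted p values, which were not used as results. The ATAC column of false discovery rates served only to state the file's filter.

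Tests used limma 3.58.1 (lmFit, eBayes with trend, R 4.3.3) on log2(normalized count + 1) for genes averaging 10 or more normalized counts, with Benjamini-Hochberg adjustment over all genes tested. A gene passed at an adjusted p under 0.05. With 3 against 3 libraries, an exact permutation test of a single gene cannot go below p = 0.1, so none is given. Alternatives were pseudocounts of 0.5 and 5, no filter and a minimum of 50, scaling to the same sum, TMM, limma without trend, edgeR 4.0.16 and DESeq2 1.42.0 on recovered reads, the replicate number as a block, and each library left out.

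Scripts were tested on simulated data. A first recovery limit, set over all expression levels, was missed by all tools, and genes with few reads were seldom recovered. This limit was replaced after that run by a limit for well-expressed genes, which was met. In that test, differences as small as those of the 10 demethylases were seldom recovered. Far fewer genes were changed in the simulation than passed the test in the data, so this recovery does not carry over to the 10. A missed test still does not show equal levels.

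The 10 genes and the lists were chosen with earlier results of these data known. Named genes were all 10, *Kdm6a* and every family gene past the test, up to 3 genes with the smallest adjusted p past 0.05 per partner, writer or metabolism list, and the most abundant gene and those at 0 of each marker list. *Kdm6b*, *Kdm5d* and *Uty* were added after their values were seen. Peak positions fitted the reference build: the annotated distance to the start site was within 2 bases of that from the RefSeq start for 51.0% of 23570 peaks, and 0 peaks lay beyond a chromosome end. Python 3.11.15, pysam 0.24.0 and matplotlib 3.10.9 were used.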

Additional observations from a re-analysis of the deposited data

How the results depend on the processing

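*Kdm6a*, *Kdm5b*, *Hr* and *Kdm7a* kept their direction and stayed past the test in all 17 alternatives, whereas *Kdm3b* did so in 12 and *Kdm4a* in 15. The number of the 10 demethylases that rose was 1 by limma without a trend and 1 to 3 with single libraries left out. Scaling to the same sum moved the median of all genes by 0.06 on the log2 scale. The cause of the changes below was not tested.

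By limma without a trend, 3 genes of the rest of the family rose. Of CoREST genes 0 fell, of the KDM2B complex 0 rose and 1 fell, of KDM5 partners 1 fell, of H3K4 writers 0 fell and of 2-oxoglutarate genes 3 fell. With libraries scaled to the same sum, 0 CoREST genes fell, 2 genes of the KDM2B complex rose and 0 fell, 1 KDM5 partner rose and 1 fell, 0 H3K4 writers fell and 2 2-oxoglutarate genes fell. Without a filter, 0 CoREST genes and 1 of the KDM2B complex fell. At a minimum mean of 50, 4 H3K4 writers fell, as by edgeR (4). By DESeq2, 2 CoREST genes fell and 2 of the KDM2B complex rose.

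With libraries scaled to the same sum and *WT* replicate 2 left out, chosen after seeing the data, 2 genes of the KDM2B complex rose and 0 fell, 2 KDM5 partners rose and 1 fell, 0 H3K4 writers and 2 2-oxoglutarate genes fell. *Kdm2b* then passed (log2 fold change 0.21, adjusted p = 0.0177, range over alternatives 0.0177 to 0.783).

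With the replicate number as a block, 3 demethylases rose, the *Kdm6a* log2 fold change was -0.23, 0 CoREST genes fell, and 2 genes of the KDM2B complex rose and 1 fell. The pairing has no ground in the labels: same-numbered libraries came from different mice, and the correlations of their deviations across genes were 0.31, -0.20 and 0.09.

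With single libraries left out, 3 to 6 family genes rose. For CoREST 5 to 7 rose and 0 to 3 fell, for the KDM2B complex 0 to 2 rose and 0 to 3 fell, for KDM5 partners 0 to 1 rose and 1 to 3 fell, for H3K4 writers 0 to 2 fell, and for 2-oxoglutarate genes 2 to 5 fell. The *Kdm6a* log2 fold change stayed between -0.25 and -0.22. By exon union length, *Kdm4c* was at 2831 normalized counts per kilobase.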
